A study of Mus musculus with 140 samples.

Results

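The nuclear-encoded genes of the mitochondrial respiratory chain were described by their TDP-43 and m6A clusters in mouse brain. Members were the protein-coding GENCODE vM21 gene models whose symbol starts with Nduf, Uqcr, Cox4, Cox5, Cox6, Cox7, Cox8 or Atp5, together with Sdha to Sdhd. The rule used names only and found 94 of 55450 annotated gene models, of which 21951 are protein-coding. It took 38 genes of complex I, 4 of complex II, 8 of complex III, 18 of complex IV, 18 of complex V and 8 Ndufaf genes, which encode assembly factors of complex I and not subunits. Of the 94 models, 93 had a listed cluster and 90 an enriched one in at least 1 of 70 libraries. Ndufs5, Cox7a1, Cox8b and Cox8c had no enriched cluster.

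The study measured where TDP-43 binds RNA and where RNA carries N6-methyladenosine (m6A) by enhanced crosslinking and immunoprecipitation (eCLIP). R6/2 mice (strain B6CBA-Tg(HDexon1)62Gpb/3J), which carry a transgene encoding exon 1 of mutant human HTT, were set against non-transgenic (NT) mice. Both were 3 months old, with 4 males and 4 females for each genotype, assay and region (striatum and cortex). A separate m6A eCLIP experiment used C57Bl/6J males given a TDP-43 antisense oligonucleotide (ASO) or PBS into the cerebral ventricles at 5 weeks of age, 500 ug for the ASO, with tissue taken 2 weeks later (3 mice each). The labels give these mice as 2 months old. The labels call that tissue cortex, whereas the treatment protocol names striatum, and the labels were followed. R6/2 mice express the transgene from the human HTT promoter as a short fragment beside 2 intact mouse alleles, so they model the fragment and not the full-length protein. TDP-43 was captured from UV-crosslinked tissue. m6A was captured from poly(A)-selected RNA.

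The respiratory chain passes electrons from NADH (complex I) and succinate (complex II) through complexes III and IV to oxygen and stores the energy as a proton gradient, which complex V uses to make ATP. Most of its subunits are made from nuclear mRNAs that are translated in the cytosol, and these mRNAs are short and abundant in neurons. TDP-43, encoded by Tardbp, is an RNA-binding protein that prefers UG-rich RNA. m6A is an internal mark of mRNA that lies mostly around stop codons and in 3′ UTRs. Antibodies to m6A can also bind m6Am, a related mark beside the cap of many mRNAs, and the clusters do not tell these marks apart. Transcript levels were not part of these files. In whole tissue, fewer cells of a type and less RNA per cell cannot be told apart.

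A cluster is a stretch of transcript with piled-up reads, deposited with a p-value and a log2 fold of immunoprecipitated over input reads. An enriched cluster here has p of 0.001 or less. Libraries held 133211 to 260739 listed and 4929 to 99049 enriched clusters. TDP-43 libraries held 6769 to 24430 enriched clusters in R6/2 striatum and 4929 to 24127 in NT striatum. In cortex they held 15804 to 44115 for R6/2 and 28913 to 54932 for NT. The m6A libraries held 61831 to 86910 in R6/2 striatum, 67512 to 76723 in NT striatum, 61998 to 79435 in R6/2 cortex and 56405 to 71114 in NT cortex. The ASO libraries held 82471 to 84542 and the PBS libraries 89867 to 99049. Several libraries stood apart. In the TDP-43 striatum lists, 36.2% to 47.4% of listed clusters of the 4 R6/2 females and R6/2 male 4 were intronic, against 16.1% to 25.7% in the 8 NT libraries. NT male 1 of TDP-43 striatum held the fewest enriched clusters. The m6A libraries of R6/2 and NT mice differed by sex as whole libraries. Those of the 16 males held 11282 to 17684 clusters past the study's own filter and those of the 16 females 6560 to 9922, without overlap, while their numbers of enriched clusters overlapped. Within the ASO and within the PBS group, 97.8% of intervals were identical in all 3 libraries, against 0.044% among 3 NT male m6A libraries of cortex. Clusters there appear to have been called once per treatment, so those libraries are not independent and p-values of that comparison are too small. Striatal projection neuron markers were higher in NT striatum than in NT cortex for 10 of 10 genes in both assays, and cortical excitatory markers for 0 of 8.

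Member transcripts were short. Their representative transcripts had a median of 824 bases (351 to 4715), against 2540 bases over all protein-coding genes. For 19 members the coding sequence had a near-identical copy elsewhere in the genome (at least 95% identity over at least 90% of its length). Reads of the coding sequence could be split between copies, and UTRs were not searched. Among the 19 were Atp5k, Cox6c, Cox7b, Cox5b, Ndufs3, Uqcrb, Atp5o and Atp5g1. For 5 members more than 50% of the enriched clusters also lay in another gene on the same strand. All clusters of Cox4i1 lay also in the model Gm20388 and all those of Ndufa13 in Yjefn3. Atp5o has a second, long model (ENSMUSG00000116933.1, chr16:91684398-91926982, GRCm38) that runs over the short gene and its neighbours, and it is named as the long model below.

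In NT tissue TDP-43 clusters lay on fewer members than m6A clusters did in striatum, and on about as many in cortex. Of 94 members, 26 (27.7%) in striatum and 52 (55.3%) in cortex had an enriched TDP-43 cluster in at least 4 of 8 libraries. For m6A the numbers were 62 (66%) and 56 (59.6%). Over all protein-coding genes the shares were 15.7% and 24.7% for TDP-43, and 49.7% and 47.9% for m6A. Summed over members, a library held 74.9 ± 27 TDP-43 clusters in striatum and 167 ± 33.9 in cortex, and 186 ± 16.1 and 148 ± 28 m6A clusters (SD, n = 8 each). In NT cortex the m6A sums were 160 to 185 in males and 112 to 137 in females, without overlap.

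The complexes differed in how the assays covered them. All 4 genes of complex II, succinate dehydrogenase, had TDP-43 clusters in at least 4 of 8 NT cortex libraries, and 1 of 4 had m6A clusters. In NT striatum it was the other way, with 2 of 4 for TDP-43 and 3 of 4 for m6A, and R6/2 cortex had 3 of 4 for m6A. In NT cortex, for complex I the counts were 19 of 38 for TDP-43 and 22 of 38 for m6A, and for complex V they were 13 of 18 in both assays. Complex IV had 8 of 18 in both. Complex III had 7 of 8 for TDP-43 and 6 of 8 for m6A. The Ndufaf genes had 1 of 8 for TDP-43 and 6 of 8 for m6A in NT cortex, and 0 of 8 and 5 of 8 in NT striatum. A library held 1.75 ± 1.39 TDP-43 clusters and 16.5 ± 2.56 m6A clusters over the 8 Ndufaf genes in NT cortex. In NT striatum it held 0.375 ± 0.744 and 19.9 ± 3.56 (SD, n = 8 each). These shares were not tested.

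Among members of the catalytic cores, Sdha, the flavoprotein of succinate dehydrogenase, carried the most TDP-43 clusters in NT cortex, whereas in NT striatum Atp5b ranked first. In NT cortex Sdha had 15 to 21 enriched clusters per library (median 19), or 6.29 per kilobase, and in NT striatum 1 to 15 (median 9.5). It had 0 to 1 m6A clusters in NT cortex and 0 to 3 in NT striatum. No TDP-43 library of cortex came near the m6A range. Atp5b, the catalytic beta subunit of ATP synthase, had 15 to 18 TDP-43 clusters in NT cortex (mean 16.2 ± 1.04) and 3 to 14 in NT striatum, against means of 2.25 and 3.12 m6A clusters. Atp5a1, the alpha subunit, had 8 to 12 TDP-43 clusters in NT cortex and 6 to 11 in NT striatum, against 2 to 3 and 2 to 4 m6A clusters. Cox4i1, the main form of a regulatory subunit of cytochrome c oxidase, had 9 to 13 TDP-43 clusters (median 10) in NT cortex and 4 to 11 (median 10) in NT striatum. It had no enriched m6A cluster in any of the 38 m6A libraries. Per kilobase, Cox4i1 had the higher TDP-43 level of these, 14.1 clusters in NT cortex against 8.48 for Atp5b and 6.29 for Sdha.

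m6A clusters were led by Uqcrfs1, the Rieske iron-sulfur protein of complex III. TDP-43 clusters on it averaged 0.125 in NT striatum and 1.25 in NT cortex. It had 9 to 15 m6A clusters in NT striatum (median 10.5, 8.25 per kilobase) and 7 to 13 in NT cortex (median 11, 7.7 per kilobase), above every TDP-43 library. Ndufa9, an accessory subunit of complex I, had 0 TDP-43 clusters in all NT striatum libraries and 4 to 7 m6A clusters in both regions. The assembly factors Ndufaf4 and Ndufaf2 averaged 5.12 and 5.62 m6A clusters in NT striatum, and 4.25 and 3.25 in NT cortex. Atp5g3, a gene for the c-ring of ATP synthase, averaged 5.75 and 5.5.

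**Figure D1:**
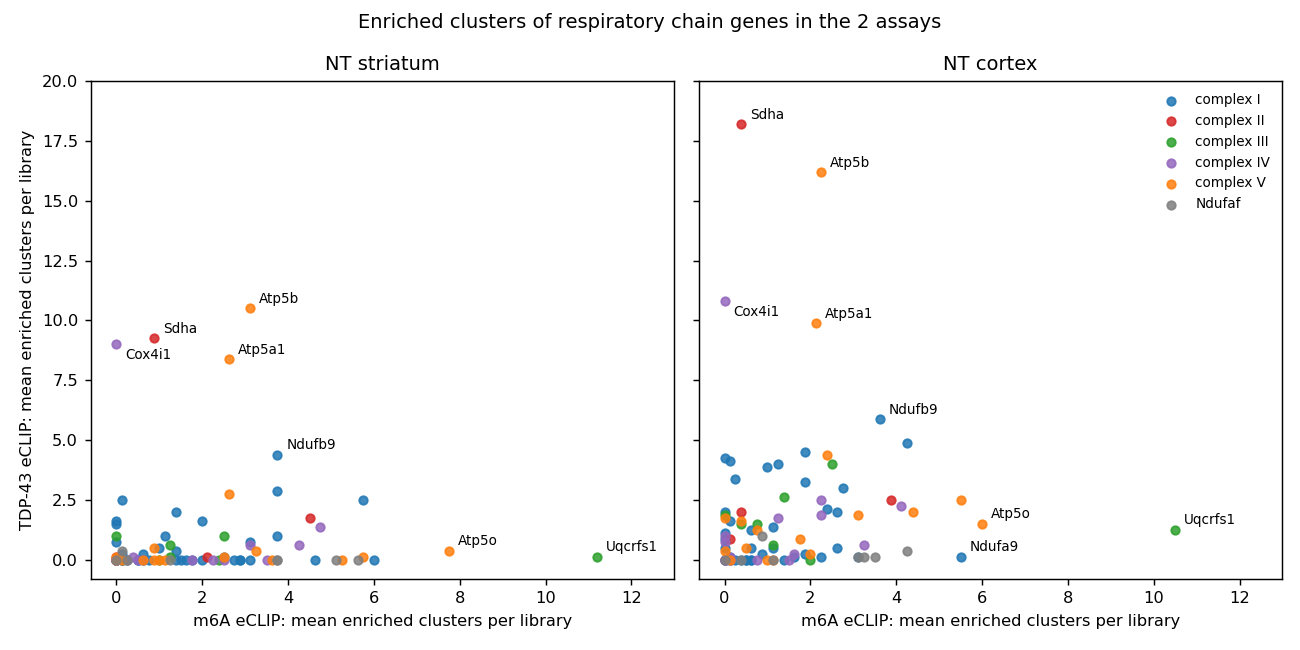
Mean number of enriched TDP-43 clusters per library (y) against that of m6A clusters (x) for each respiratory chain gene in NT striatum (left) and NT cortex (right), coloured by complex, 8 libraries per assay and region. Sdha, Atp5b, Cox4i1 and Atp5a1 lie along the TDP-43 axis, and Uqcrfs1 lies along the m6A axis with a mean of 10.5 in cortex.

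Across the 94 members the mean cluster numbers of the assays were only loosely related, with Spearman's rho of 0.19 in NT striatum and 0.29 in NT cortex, against 0.53 and 0.62 across all protein-coding genes. Genes are not independent replicates, and the assays share transcript length and level. Of the members with TDP-43 clusters in at least 4 of 8 NT cortex libraries, 20 of 52 (38.5%) had no such m6A presence, against 12.3% over all protein-coding genes. In striatum the share was 23.1% (6 members), against 8.22%. Of the members with m6A clusters, 24 of 56 (42.9%) in cortex and 42 of 62 (67.7%) in striatum had no such TDP-43 presence, against 54.8% and 70.9% over all protein-coding genes.

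The assays were compared within NT tissue on numbers scaled by median-ratio size factors, with limma on log2 values. Over all genes tested the median difference, TDP-43 minus m6A, was −2.81 in striatum and −2.10 in cortex, so each change is also given relative to that median. In striatum 32 members were tested, and 7 were called higher and 23 lower with TDP-43 than with m6A. Over all genes the shares called were 7.90% higher and 84.3% lower. In cortex 35 members were tested, and 14 were called higher and 13 lower, against 20.0% and 69.4% over all genes. Under quantile normalization, which sets the median near 0, the counts were 21 higher and 3 lower in striatum and 26 higher and 2 lower in cortex.

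Sdha had 9.98 ± 3.32 normalized TDP-43 clusters and 0.675 ± 0.89 m6A clusters in NT striatum, a log2 difference of 3.41 ± 0.39 (SE, limma adjusted p = 3.79e-07) and 6.21 above the median of all genes. In NT cortex it had 19.2 ± 2.99 and 0.364 ± 0.504 (4.70 ± 0.29, adjusted p = 4.08e-11, 6.80 above the median). Cox4i1 had 11.4 ± 2.34 TDP-43 clusters and 0 m6A clusters in cortex (limma adjusted p = 1.45e-15), and no fold is given against 0. These groups did not overlap. Ndufv1, the NADH-binding flavoprotein of complex I, had 4.43 ± 1.06 TDP-43 clusters and 0 m6A clusters in cortex. Testing required at least 2 clusters in at least 50% of libraries. In cortex Sdha, Cox4i1 and Ndufv1 met this through their TDP-43 libraries alone. Their p-values and lack of overlap there are therefore not separate support. Uqcrfs1 lay at the other end, with 1.18 ± 0.803 TDP-43 clusters and 10.1 ± 2.19 m6A clusters in cortex (−2.85 ± 0.35, limma adjusted p = 5.37e-07, 0.75 below the median). The high TDP-43 members depended on counting enriched clusters. When all listed clusters were counted, the differences of Cox4i1, Atp5b and Atp5a1 were −0.72, −1.16 and −0.89 in cortex, that of Ndufv1 was −0.45 and that of Sdha −0.03.

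The m6A clusters of members lay at the start of the transcript. In NT striatum 49.8% of the members' enriched m6A clusters (45.8% to 54.2% over 8 libraries) lay in the first 150 transcript bases. In NT cortex the share was 49.2% (43.3% to 56.8%). Among all protein-coding genes with a transcript under 1500 bases it was 9.63% to 17.6% over all m6A libraries, so the ranges did not overlap. The R6/2 shares were 48.3% in striatum and 49.2% in cortex, and those of ASO and PBS cortex were 47.2% and 45.7%. TDP-43 clusters of members showed no such excess, with 9.78% in NT striatum and 9.41% in NT cortex. Within 150 bases of the stop codon lay 21.6% and 28% of the members' TDP-43 clusters in NT striatum and cortex, and 12.7% and 13.8% of their m6A clusters. For protein-coding genes with a transcript under 1500 bases these shares were 17.5% and 18.3% with TDP-43, and 25.3% and 25.5% with m6A. Over all protein-coding genes they were 6.32% and 6.86% with TDP-43, and 19.7% and 20% with m6A.

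**Figure D2:**
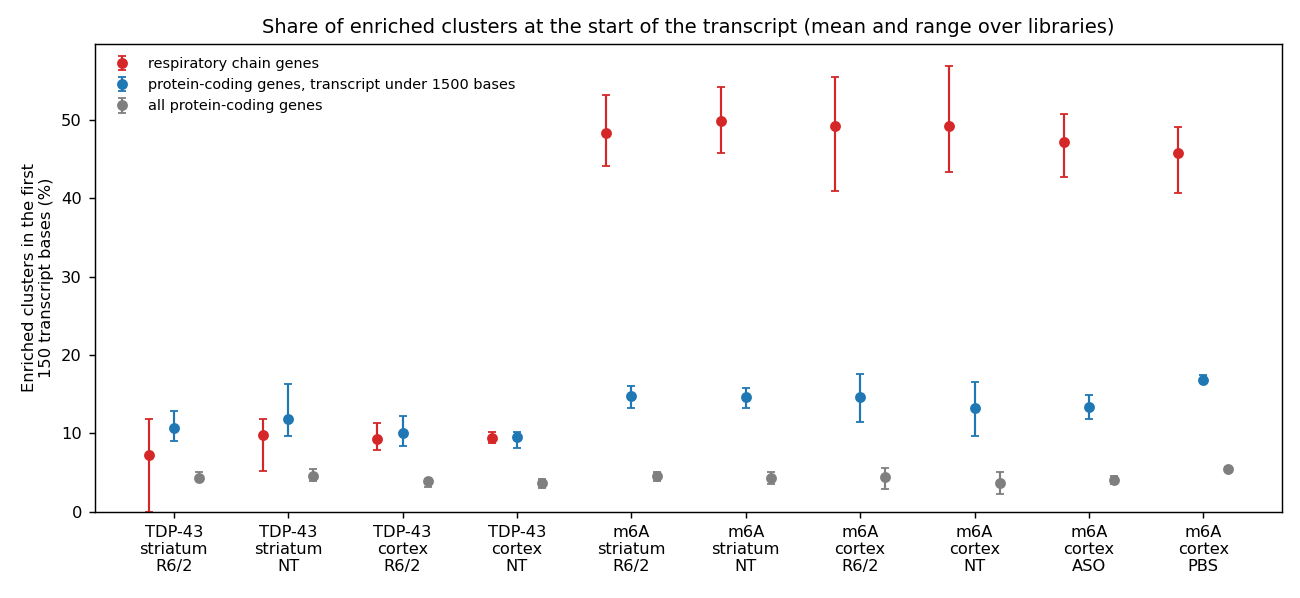
Percentage of enriched clusters in the first 150 transcript bases, as mean and range over libraries (8 per R6/2 and NT group, 3 per ASO and PBS group), for respiratory chain genes, protein-coding genes with transcripts under 1500 bases and all protein-coding genes. In every m6A group the respiratory chain genes lie between 40.7% and 56.8% and above both other sets, whereas in the TDP-43 groups they overlap the short genes.

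By annotation, 36.9% ± 4.61 of the members' m6A clusters in NT striatum and 35.7% ± 6.02 in NT cortex lay in 5′ UTRs, against 6.7% ± 0.986 and 6.05% ± 1.53 over all genes (SD, n = 8 libraries each). Only 13.1% ± 1.83 and 16.2% ± 3.9 lay in 3′ UTRs, against 45.3% ± 3.55 and 47% ± 3.29. TDP-43 clusters of members lay mostly in coding sequence, 75.1% ± 1.77 in NT striatum and 75.1% ± 2.28 in NT cortex, against 50.2% ± 2.68 and 52.8% ± 2.87 over all genes. These annotation shares were not matched for transcript length, and a UTR here can be that of any annotated transcript. Of the 43 members with at least 16 TDP-43 clusters over the R6/2 and NT libraries, 4 had at least 50% of them in the first 150 bases and 30 had at least 50% in coding sequence. For m6A 35 of 61 such members had at least 50% in the first 150 bases.

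Single members showed the pattern clearly, as did its exceptions. All m6A clusters of Atp5g3 lay in the 5′ UTR, and all those of Atp5b, Ndufb9 and Cox8a in the first 150 bases. The share was 95% for Uqcrh, the hinge protein of complex III, 93.3% for Ndufb8 and 77.6% for Ndufa9. Uqcrfs1 differed, with 60.9% of its m6A clusters in coding sequence, 39.1% in the 3′ UTR and none in the first 150 bases. Ndufaf4 had 66.2% in coding sequence and 2.7% in the first 150 bases. All m6A clusters of Cox7a2l, a factor of supercomplex assembly, lay in its 3′ UTR, as did 97.8% of those of Sdhd. With TDP-43, all clusters of Sdhc, Sdhd and Cox7a2l lay in the 3′ UTR and all those of Ndufv1 and Ndufb9 in coding sequence. Coding sequence held 97.8% for Atp5b, 87.8% for Cox4i1 and 74.9% for Sdha.

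The members' m6A clusters were also weak. The median log2 fold over input of members' enriched m6A clusters was 1.18 ± 0.104 in NT striatum and 1.14 ± 0.156 in NT cortex, against 2.06 ± 0.157 and 2.08 ± 0.137 over all genes (SD, n = 8 libraries each). The members' values, up to 1.38, lay below all of those over all genes, from 1.89. For TDP-43 the members had 3.52 ± 0.172 and 3.36 ± 0.157, against 3.42 ± 0.188 and 3.11 ± 0.0763. The study's own filter asks for a log2 fold above 3. Under it 1 member was testable in each m6A comparison of genotype.

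Clusters seen in at least 4 of the 16 R6/2 and NT libraries at 1 place were joined into sites. Members, without the long model, held 81 TDP-43 sites in 28 genes in striatum and 164 in 55 genes in cortex, of which 63 and 121 were in coding sequence. They held 101 m6A sites in 66 genes in striatum and 97 in 67 genes in cortex. Of the TDP-43 sites 14 of 81 (17.3%) in striatum and 30 of 164 (18.3%) in cortex lay on an m6A site. Of the m6A sites, 12.9% and 29.9% lay on a TDP-43 site.

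The sequences below are 30-base windows of the sense strand (GRCm38) from sites present in at least 5 of 8 libraries of each genotype and region, shown because they hold a motif and lie in members described above or, for Atp5j, just below. Capitals mark TGTGT, a UG-rich run of the kind TDP-43 prefers, in sites of the TDP-43 assay.
Sdha, coding sequence, chr13:74339080-74339109, minus strand: catcggtgttgcTGTGTggctgatcggaca
Atp5b, coding sequence, chr10:128089016-128089045, plus strand: agataaattgacTGTGTcccgggcaagaaa
Ndufv1, coding sequence, chr19:4009445-4009474, minus strand: ctatgattttgaTGTGTttgtggtgcgtgg
Uqcrh, coding sequence, chr4:116069934-116069963, minus strand: aacgactagagtTGTGTgataatcgcgtgt
Atp5j, 5′ UTR, chr16:84834867-84834896, minus strand: ggcgggtaggcgTGTGTaggcggagccagg

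In sites of the m6A assay the capitals mark GGACT, a common form of the sequence that the m6A writer methylates.
Uqcrfs1, 3′ UTR, chr13:30540707-30540736, minus strand: ggttagacacgtGGACTcagggcctaggtt
Cox7a2l, 3′ UTR, chr17:83502277-83502306, minus strand: ctcagggcctcgGGACTcaggcggtgtctg
Ndufaf4, coding sequence, chr4:24901833-24901862, plus strand: ctccagaaacatGGACTgctgagaaaatcg
Atp5b, coding sequence, chr10:128083369-128083398, plus strand: ggggccttgcggGGACTcagcccttcggcg
Uqcrh, 5′ UTR, chr4:116074949-116074978, minus strand: gctcccgacatgGGACTagaggacgaacga
Atp5j, 5′ UTR, chr16:84834805-84834834, minus strand: tctggcagctcgGGACTcagtgcaaggtga

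Atp5b and Uqcrh carried their m6A site near the transcript start and their TDP-43 site further into the coding sequence. Atp5j, a peripheral stalk subunit of ATP synthase, carried both sites on the 5′ UTR of an annotated transcript. Of its clusters in either assay, 0% lay in the first 150 bases of the representative transcript. The motifs were searched on the sense strand only, and their letters can overlap by 1 base. In the central 51 bases of m6A sites GGACT was in 10.3% of members' sites against 14.4% over all sites in striatum, and in 7.62% against 14.5% in cortex. TGTGT was in 8.43% of members' TDP-43 sites against 7.12% over all sites in striatum, and in 12% against 7.35% in cortex. A match is a description of letters and not a mapped mark.

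Among paralogues that differ by tissue the widespread form held more clusters in most pairs, and the Cox6b pair was an exception. Cox4i1 was clustered as above, while Cox4i2, a form of lung, averaged at most 0.25 clusters. Cox6a1, the widespread form, averaged 0.625 and 1.88 TDP-43 clusters in NT striatum and cortex and 3.12 and 2.25 m6A clusters. Cox6a2, a form of heart and skeletal muscle, had no TDP-43 clusters and averaged 0.625 and 0.75 m6A clusters. Cox7a1 and Cox8b, also forms of muscle, had none, and Cox8a averaged 1.75 and 1.25 m6A clusters. Cox7a2, paired with Cox7a1, had no m6A cluster either. It had TDP-43 clusters in 5 of 8 NT cortex and 0 of 8 NT striatum libraries. Cox6b2, a form of testis, averaged 2.25 and 1.5 m6A clusters in NT striatum and cortex, with at least 1 in every library, and no TDP-43 clusters. Cox6b1, the widespread form, averaged 0.375 and 0 m6A clusters and 0.125 and 1 TDP-43 clusters. Of the c-ring genes Atp5g3 led, Atp5g1 averaged 3.62 and 2 m6A clusters, and Atp5g2 averaged at most 0.125 in NT tissue.

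The R6/2 comparisons asked whether the clusters of these genes change with the transgene. No member was called in any of the 4 comparisons by limma at an adjusted p under 0.05. In TDP-43 striatum 0 of 12 tested members were called, against 13.6% of 2333 genes. The other backgrounds were 7.10% of 3904 genes in TDP-43 cortex (32 members tested), 9.64% of 9734 in m6A striatum (43 members) and 6.17% of 9071 in m6A cortex (37 members). At an unadjusted p under 0.05 the members numbered 1, 2, 5 and 4 in the same order. The share of all genes under that threshold cannot be lower than the share called above. These counts are therefore not read as a result about the members. Their median log2 changes, R6/2 minus NT, were −0.10, −0.15, −0.12 and 0.05, and those of all genes −0.05, −0.09, 0.02 and 0.02.

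**Figure D3:**
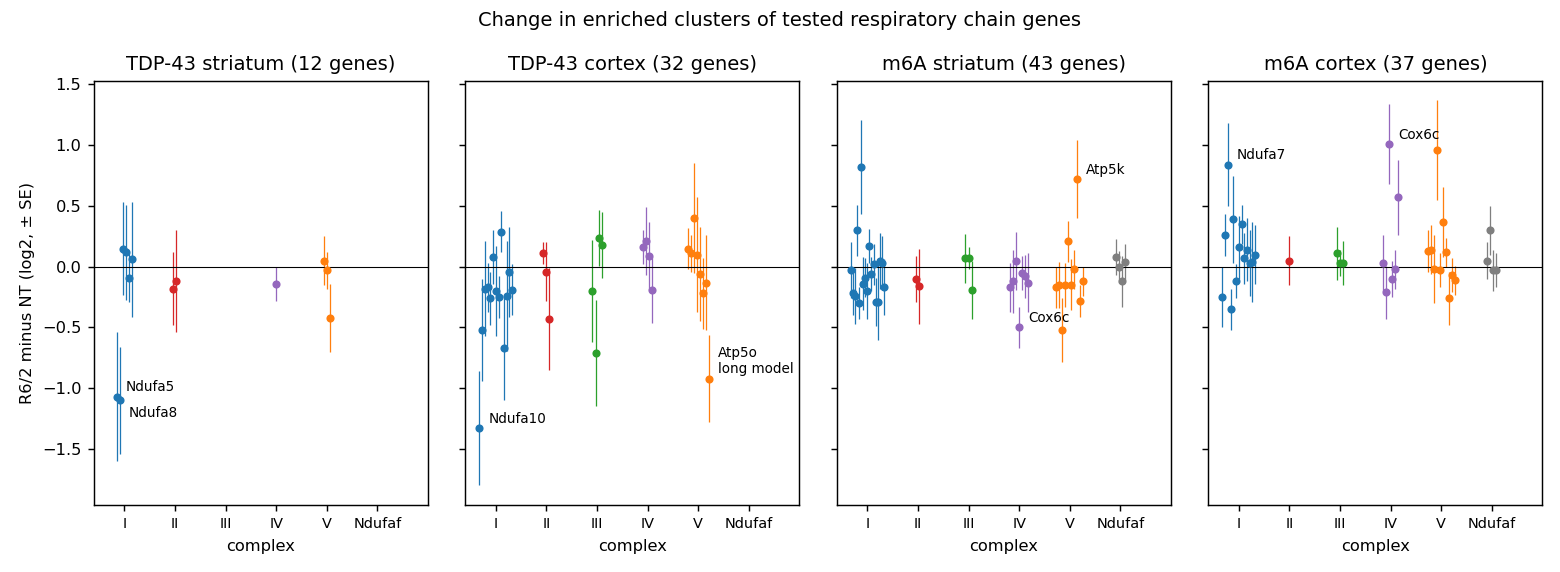
Log2 change of enriched clusters, R6/2 minus NT, for each tested respiratory chain gene by complex, with SE bars, in the 4 assay and region comparisons (12, 32, 43 and 37 genes). Most points lie near 0 and none was called, with Ndufa10 at −1.33 the lowest.

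The highly clustered members stayed within the spread of the libraries. Sdha averaged 17.9 ± 2.21 normalized TDP-43 clusters in R6/2 cortex and 16.5 ± 1.74 in NT cortex (0.11 ± 0.09, SE). In striatum it averaged 6.75 ± 2.75 in R6/2 and 7.52 ± 2.56 in NT (−0.18 ± 0.30). Cox4i1 averaged 11 ± 2.32 and 9.74 ± 1.54 in R6/2 and NT cortex, and 7.31 ± 1.03 and 8.15 ± 1.28 in R6/2 and NT striatum. Uqcrfs1 averaged 11.9 ± 1.82 m6A clusters in R6/2 striatum and 11.4 ± 2.18 in NT striatum (0.07 ± 0.09), and 11.2 ± 2.01 and 11 ± 2.24 in cortex. The ranges overlapped in each of these.

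Within complex I the accessory subunits Ndufa8, Ndufa5 and Ndufa10 had the widest TDP-43 differences. In TDP-43 striatum Ndufa8 had 2, 3, 3 and 0 clusters in R6/2 males and 0, 0, 0 and 1 in R6/2 females, against 1, 2, 3 and 1 in NT males and 3, 1, 2 and 3 in NT females. The log2 change was −1.10 ± 0.44 (SE, limma adjusted p = 0.116). Ndufa5 had 2, 3, 3 and 0 in R6/2 males and 0, 0, 1 and 0 in R6/2 females, against 0, 3, 3 and 3 in NT males and 3, 3, 2 and 3 in NT females (−1.07 ± 0.53, limma adjusted p = 0.211). The low R6/2 libraries were those with an intronic share above 30%. Without these 5 libraries the changes were 0.23 for Ndufa8 and 0.50 for Ndufa5, and 27 genes in all were called. With covered bases in place of clusters Ndufa8 was called (limma adjusted p = 0.049), and without NT male 1 Ndufa5 was called (limma adjusted p = 0.0257).

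In TDP-43 cortex Ndufa10 had 0, 2, 0 and 0 clusters in R6/2 males and 1, 3, 4 and 0 in R6/2 females, against 2, 1, 2 and 5 in NT males and 2, 6, 2 and 4 in NT females. The log2 change was −1.33 ± 0.47 (SE, limma adjusted p = 0.0963), and the gene was called without R6/2 male 2 (adjusted p = 0.0448) or R6/2 female 3 (adjusted p = 0.0482). At 1 site in its 3′ UTR (chr1:92439754-92439859) a cluster lay in 1 of 8 R6/2 libraries and 8 of 8 NT libraries, for which an exact two-sided test stratified by sex gave p = 0.00204 and an adjusted p of 0.593. The 3 R6/2 cortex libraries above 30% intronic were male 4, female 2 and female 4. The long model of Atp5o differed by −0.92 (limma adjusted p = 0.14).

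With m6A, Cox6c, a subunit of cytochrome c oxidase with a near-identical copy of its coding sequence, differed in opposite directions in the regions. In striatum it had 3, 6, 3 and 4 clusters in R6/2 males and 2, 2, 1 and 2 in R6/2 females, against 6, 7, 6 and 6 in NT males and 2, 3, 2 and 2 in NT females (−0.50 ± 0.17, SE, limma adjusted p = 0.0582). In cortex it had 6, 8, 5 and 6 in R6/2 males and 0, 2, 1 and 3 in R6/2 females, against 3, 7, 3 and 5 in NT males and 0 in all 4 NT females (1.01 ± 0.33, limma adjusted p = 0.0728). The difference between the regions was −1.53 ± 0.44 (limma adjusted p = 0.158). It was called in striatum under quantile normalization (adjusted p = 0.0383), without R6/2 male 2 (adjusted p = 0.0336) or R6/2 female 1 (adjusted p = 0.0433), and in cortex without NT male 2 (adjusted p = 0.045) or R6/2 female 1 (adjusted p = 0.0222). Its direction turned under other settings, to 0.10 in striatum by covered bases and −0.04 in cortex by all listed clusters. In both genotypes and regions every male library had more clusters than every female library of its group.

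**Figure D4:**
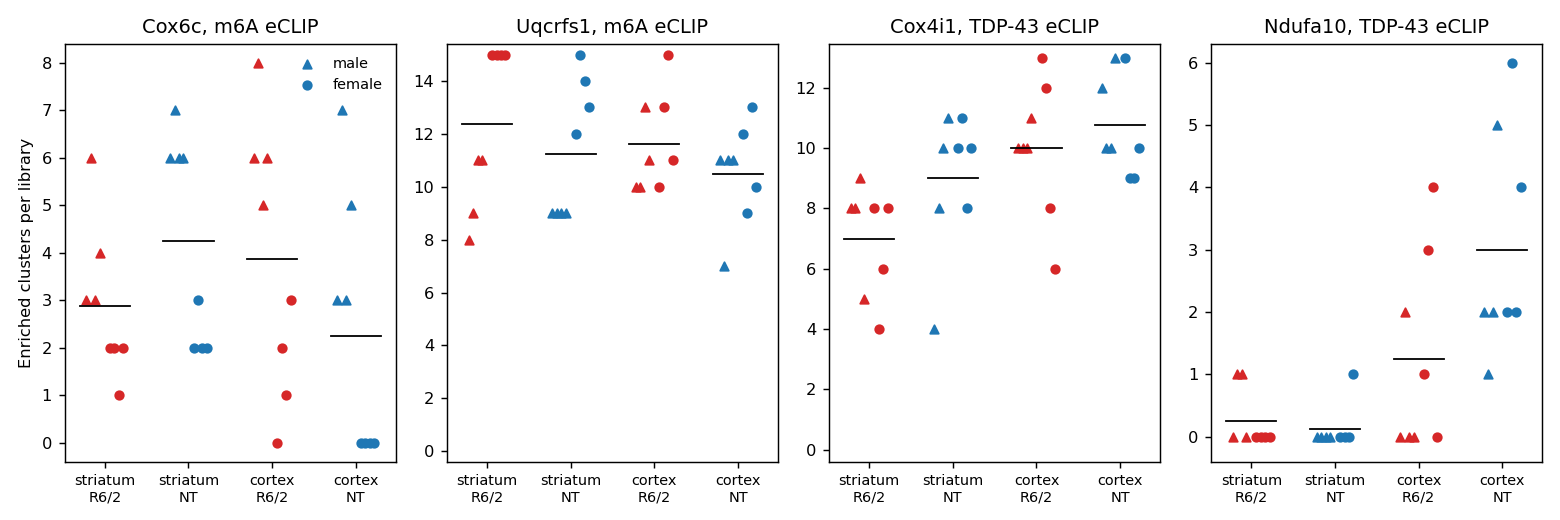
Enriched clusters per library for Cox6c and Uqcrfs1 (m6A) and Cox4i1 and Ndufa10 (TDP-43) in R6/2 (red) and NT (blue) striatum and cortex, males as triangles, females as circles, lines at the mean of 8 libraries. Cox6c is higher in the males of each group, Uqcrfs1 and Cox4i1 overlap between genotypes, and 4 of 8 R6/2 cortex libraries but no NT cortex library lack a cluster on Ndufa10.

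Atp5k, subunit e of ATP synthase, had the same split by sex in m6A cortex, with 5, 4, 4 and 6 clusters in R6/2 males and 0 in R6/2 females, against 6, 6, 6 and 7 in NT males and 0 in NT females. In striatum it had 4, 8, 6 and 4 in R6/2 males and 3, 8, 3 and 2 in R6/2 females, against 5, 5, 6 and 5 in NT males and 0, 1, 1 and 3 in NT females (0.72 ± 0.32, SE, limma adjusted p = 0.173, and −0.10 by all listed clusters). For Uqcrfs1 in striatum it ran the other way, with 8 to 11 in R6/2 males and 15 in each R6/2 female, against 9 in each NT male and 12 to 15 in NT females. Sex was a covariate and was not tested as an effect of its own, and the part of the libraries' own difference by sex in these splits was not tested. Ndufa7 in m6A cortex differed by 0.84 ± 0.34 (SE, limma adjusted p = 0.146), and by −0.15 when all listed clusters were counted. Ndufa9 in m6A striatum differed by −0.30 (limma adjusted p = 0.183) and was called without R6/2 male 4 (adjusted p = 0.0408).

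No member was called for a difference of the R6/2 effect between regions or between sexes. Between regions the shares of all genes called were 0.0658% of 3040 genes with TDP-43 and 0.258% of 9312 with m6A. Between sexes limma called 0% in each of the 4 comparisons, with 197, 220, 580 and 420 genes at an unadjusted p under 0.05. At the level of single sites 0% of 18561, 37174, 40994 and 37895 sites were called. With 4 libraries against 4 in each sex, the exact test cannot give very small p-values. Only 9, 24, 47 and 40 sites had a cluster in all libraries of 1 genotype and none of the other. A call over so many sites was hardly possible, so the 0% is not read as a lack of change. For sites at an unadjusted p under 0.05 there were 1105, 1577, 1222 and 1178 sites, of which 1, 3, 1 and 2 were in members. Counting all listed clusters, 14.3%, 4.13%, 4.63% and 3.48% of genes were called in TDP-43 striatum, TDP-43 cortex, m6A striatum and m6A cortex. Ndufab1, the mitochondrial acyl carrier protein, was then the member called higher in R6/2 with TDP-43, with 9.12 listed clusters in R6/2 and 4 in NT striatum (0.90, limma adjusted p = 0.0182) and 8.88 and 3.88 in cortex (1.05, limma adjusted p = 0.0248).

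Members too sparse to test differed by presence in both directions, and these counts were not tested. Atp5e, the epsilon subunit of ATP synthase, had TDP-43 clusters in 3 of 8 R6/2 and 8 of 8 NT cortex libraries, and Uqcrc2 in 0 and 4. Atp5g1 had them in 6 of 8 R6/2 and 2 of 8 NT cortex libraries, and Atp5f1, the peripheral stalk subunit b, in 8 and 5. Ndufa12 had them in 3 of 8 R6/2 and 7 of 8 NT striatum libraries. Cox6a2 had m6A clusters in 1 of 8 R6/2 and 5 of 8 NT striatum libraries, and in 0 and 6 of 8 in cortex. Ndufa13 had them in 5 of 8 R6/2 and 1 of 8 NT cortex libraries, and Ndufab1 in 8 and 5. In striatum Uqcr10 had them in 5 and 2, and Ndufaf8 in 4 and 1. A cluster in at least 4 more R6/2 than NT libraries was found for 0, 1, 0 and 1 untested members in TDP-43 striatum, TDP-43 cortex, m6A striatum and m6A cortex. In at least 4 fewer it was found for 2, 3, 1 and 1 of them. Over all untested protein-coding genes with a cluster the shares were 4.29%, 0.955%, 5.73% and 5.49% for more, and 4.62%, 7.69%, 3.79% and 4.35% for fewer. With a looser filter on low values Cox6a2 was called lower in m6A cortex (−1.21, limma adjusted p = 0.0174).

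Striatal projection neuron markers were lower in R6/2 beside these results. Their summed m6A clusters were 145 to 154 in R6/2 striatum and 230 to 272 in NT striatum, lower for 10 of 10 markers. With TDP-43 the sums were 54.5 to 78.4 in R6/2 striatum and 106 to 229 in NT striatum. The m6A sums of these markers were also lower in cortex, 57.8 to 70.7 in R6/2 and 84.8 to 95.1 in NT. Other lists moved as well. In m6A striatum astrocyte markers summed to 84 to 95.1 in R6/2 and 96.4 to 110 in NT. There the mean was higher in R6/2 for 0 of 5 microglial, 2 of 6 oligodendrocyte and 4 of 4 vascular markers, with overlapping sums. Microglial and vascular markers were at 0 in all TDP-43 striatum libraries of both genotypes. The part of cell composition in the members' values was not tested.

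Few related genes outside the rule were called in R6/2. Of the 13 mitochondrially encoded respiratory chain mRNAs 3 were tested in m6A striatum, and mt-Nd2, a complex I subunit, was called higher, with 6.48 ± 1.49 clusters in R6/2 and 3.58 ± 1.25 in NT (0.81, limma adjusted p = 0.00136). Of 10 tested genes of pyruvate dehydrogenase and the citric acid cycle, Ogdh was called lower in TDP-43 cortex, with 6.2 ± 1.02 in R6/2 and 9.6 ± 1.44 in NT (−0.59, limma adjusted p = 0.0128). None of the 21 tested assembly factors outside the rule was called in either m6A comparison, nor was any of 10 tested regulators of mitochondrial biogenesis. Over all genes tested, 9.64% were called in m6A striatum, 6.17% in m6A cortex and 7.10% in TDP-43 cortex.

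The ASO comparison asked how m6A clusters on these mRNAs differ after a TDP-43 ASO. The control was PBS and not another oligonucleotide, so effects of the oligonucleotide itself and of lower TDP-43 cannot be told apart. Tardbp itself, the ASO target, had 7, 8 and 9 m6A clusters in ASO cortex and 18, 17 and 25 in PBS cortex (8.41 ± 0.992 and 18.9 ± 3.2 normalized, −1.12 ± 0.14, SE, limma adjusted p = 0.00371). Members held 221 ± 27.3 enriched clusters per ASO library and 308 ± 57.7 per PBS library (SD, n = 3 each), with PBS male 3 the highest at 375. Of 53 members tested, 4 were called higher and 13 lower in ASO, against 13.4% higher and 16.8% lower of 10149 genes. The members' median change was −0.25 and that of all genes −0.02. Of the 53, 16 were higher and 37 lower in sign. By complex the calls were 1 higher and 3 lower in complex I, 1 and 2 in complex III, 0 and 4 in complex IV, 2 and 3 in complex V, and 0 and 1 among the Ndufaf genes.

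In complex V, Atp5d, the delta subunit of the central stalk, had 0 clusters in all 3 ASO libraries and 3 in each PBS library (limma adjusted p = 0.00162). Atp5k had 6, 5 and 6 in ASO and 10, 11 and 14 in PBS (−0.83 ± 0.13, SE, limma adjusted p = 0.0065). Atp5j2, subunit f, had 5 in each ASO library and 8, 8 and 10 in PBS (−0.59). Atp5o, the subunit that joins the stalk to the catalytic head, ran the other way with 10 in each ASO library and 8, 8 and 10 in PBS (0.34), as did Atp5a1 with 3 in each ASO and 2 in each PBS library (0.61). Scaled values did not overlap between the treatments for any of the 17 called members, though the unscaled numbers of Atp5o did. These members were selected by their call, and libraries of a treatment shared 97.8% of their intervals. The lack of overlap therefore adds nothing to the calls. Testing required at least 2 clusters in at least 50% of libraries. Atp5d, and Ndufaf5, Cox6b2 and Uqcrc2 below, met this through the PBS libraries alone. Their calls were therefore partly set by that selection and are not separate support.

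In complex I, Ndufs3, a core subunit with a near-identical copy, had 1, 1 and 2 clusters in ASO and 5, 5 and 7 in PBS (−1.66 ± 0.25, SE, limma adjusted p = 0.00634). Ndufv3 had 3, 3 and 4 in ASO and 6, 7 and 13 in PBS (−1.06, limma adjusted p = 0.0299), and Ndufb10 had 5, 4 and 4 against 8, 8 and 9 (−0.74). Ndufa7 was higher, with 5 in each ASO library and 3, 4 and 4 in PBS (0.54). The assembly factor Ndufaf5 had 1 in each ASO and 3 in each PBS library (−1.11, limma adjusted p = 0.00414). Complex IV was called in 1 direction only. Cox6a1 and Cox7b each had 2 in every ASO and 4 in every PBS library (−0.72 for both), Cox6b2 had 1 in each ASO library and 2, 3 and 3 in PBS (−0.95), and Cox7a2l had 5, 6 and 6 in ASO and 9, 8 and 11 in PBS (−0.53). In complex III Uqcrfs1 had 16, 16 and 15 in ASO and 19, 19 and 21 in PBS (−0.17), Uqcrc2 had 1 in each ASO and 2 in each PBS library (−0.63) and Uqcrb had 5 in each ASO and 4 in each PBS library (0.42).

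**Figure D5:**
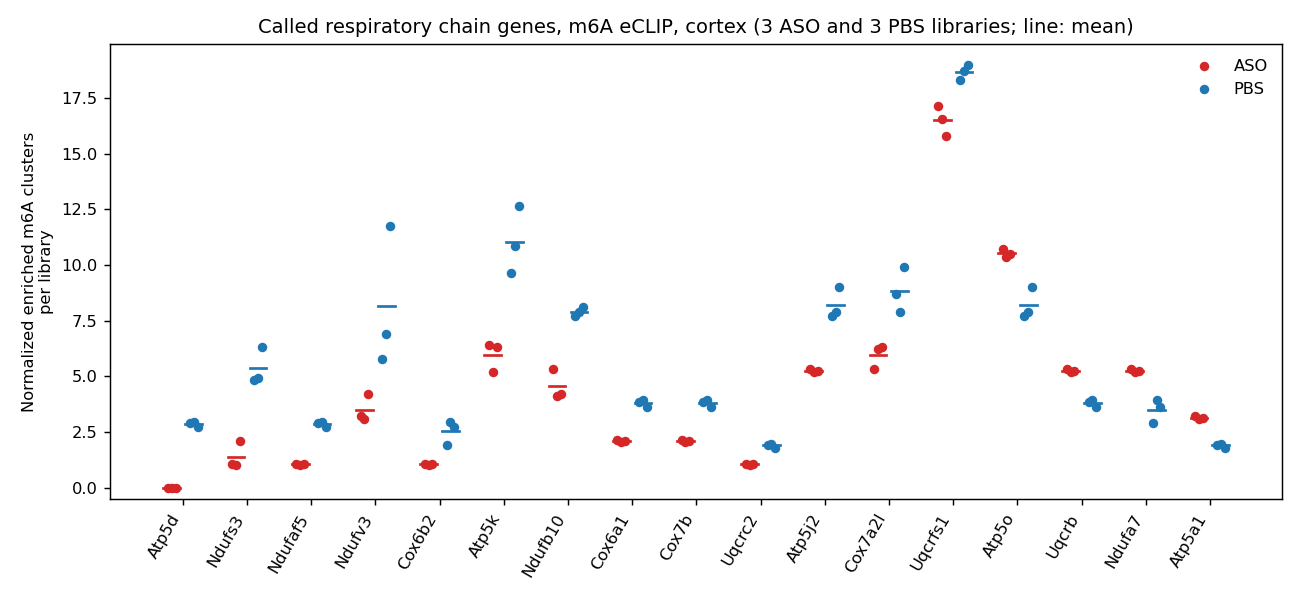
Normalized enriched m6A clusters per library in ASO (red, left) and PBS (blue, right) cortex for the 17 called respiratory chain genes, with lines at the mean of 3 libraries. The genes were selected by their call, so the lack of overlap between treatments adds nothing to it. Atp5d is at 0 in all 3 ASO libraries.

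These calls counted clusters, and the number of bases covered by them gave fewer. By covered bases 1 member, Atp5d, and 272 genes were called, and under the study's filter no member and 3 genes. Without PBS male 1, 10 members were called, and without PBS male 2, 11. Of the 17 calls, 7 were lost in at least 1 of the runs that left out a library. Uqcrc2 lost its call without any 1 of the ASO libraries (adjusted p = 0.0671 to 0.0937) and could not be tested without a PBS library. Atp5o lost it in 5 of 6 runs (up to 0.0561), all but that without PBS male 3, and Uqcrfs1 in 4 of 6 (up to 0.0801), those without PBS male 1 or 2 or ASO male 2 or 3. Ndufa7 lost it without any 1 of the ASO libraries (up to 0.0667), and Ndufv3 without PBS male 2 or ASO male 1 or 2 (up to 0.0835). Atp5a1 lost it without PBS male 1 or ASO male 3, and Uqcrb without ASO male 3. Ndufs3, Ndufb10, Atp5k, Atp5j2, Cox6a1, Cox7a2l and Cox7b kept it in all 6 runs, and Ndufaf5, Cox6b2 and Atp5d in the 3 in which they were tested. Libraries of a treatment shared 97.8% of their intervals, so a call kept when 1 is left out is weak support. By covered bases the changes of Ndufaf5, Cox6a1, Atp5o and Atp5a1 were 0.09, 0.02, −0.01 and −0.00. Of sites seen in at least 3 of the 6 libraries, 7 of 105 member sites had a cluster in all libraries of 1 treatment and none of the other, against 4.30% of 31142 sites overall. The 6 PBS sites were in Ndufb3, Ndufc2, Ndufaf3, Atp5d, Atp5h and Ndufa11, and the ASO site was in the 3′ UTR of Ndufb2 (chr6:39603068-39603124). With 3 libraries against 3 an exact permutation test cannot go below 0.1.

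Beside the members, mt-Nd2 averaged 24.9 clusters in ASO and 14.1 in PBS (0.86, limma adjusted p = 0.0432). Of 23 tested assembly factors outside the rule, Tmem126b was called higher and Atpaf2, Sco2, Cox14, Uqcc2 and Sdhaf2 lower. Of 10 tested regulators of mitochondrial biogenesis Tfam (0.53) and Esrra (1.41) were called higher and Tfb1m (−0.63) lower. Of 9 tested genes of pyruvate dehydrogenase and the citric acid cycle, Mdh2 and Pdhb were called higher and Ogdh lower. Over all 10149 genes tested, 13.4% were called higher and 16.8% lower, and the lists were not tested against these shares. Cyc1, cytochrome c1 of complex III, had no cluster in ASO and averaged 1.9 in PBS.

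The region comparison within NT mice set striatum against cortex. With TDP-43, 18 members were tested, 2 were called higher and 4 lower in striatum, against 8.97% and 42.5% of all genes. The median change of all genes was −0.64, and under quantile normalization, which moved it to 0.06, the counts were 9 higher and 0 lower. Cox4i1 had 11.6 ± 1.95 normalized clusters in striatum and 8.11 ± 1.06 in cortex (0.48 ± 0.13, SE, limma adjusted p = 0.00623, 1.13 above the median). Atp5a1 had 11.4 ± 4.34 and 7.55 ± 1.69 (0.53 ± 0.18, limma adjusted p = 0.0215, 1.17 above the median). Ndufa13, an accessory subunit of complex I, had 0.527 ± 0.775 in striatum and 3 ± 1.23 in cortex (−2.00 ± 0.41, limma adjusted p = 0.000793, 1.35 below the median). Its clusters lie also in Yjefn3. Uqcrh, the long model of Atp5o and Ndufv1 were called lower, at 0.46, 0.67 and 0.27 below the median. When all listed clusters were counted none of these 6 was called, and Ndufa13 differed by 0.05, the long model of Atp5o by 0.09 and Ndufv1 by 0.32. Ranges overlapped for all 6. Of 8 tested genes of pyruvate dehydrogenase and the citric acid cycle 5 were called lower and 0 higher. Among members too sparse to test, Atp5e and Uqcr10 had TDP-43 clusters in 0 of 8 striatum and 8 of 8 cortex libraries. The NT striatum libraries held 4929 to 24127 enriched clusters and the NT cortex libraries 28913 to 54932. The share of all untested genes with such a split was not counted, and the part of library depth was not tested. These 2 members are therefore not read as particular.

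With m6A, 40 members were tested, 2 were called higher and 0 lower in striatum, against 9.77% and 8.94% of all genes. Cox6c had 4.08 ± 2.23 normalized clusters in striatum and 2.3 ± 2.75 in cortex (1.39 ± 0.27, SE, limma adjusted p = 0.000711). Ndufaf2, an assembly factor of complex I, had 5.28 ± 0.919 and 3.4 ± 1.24 (0.63 ± 0.20, limma adjusted p = 0.0291). Both overlapped between regions. By all listed clusters 15.5% of genes with TDP-43 and 12.5% with m6A were called between regions. Sdhc was then the TDP-43 member called (5.38 in striatum and 4.12 in cortex), and Atp5j2 was among 3 m6A members called (12.2 in striatum and 8.38 in cortex). Cox6c (0.19) and Ndufaf2 (0.32) were not called by it.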

How the data were processed

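The processed data are 70 lists of eCLIP clusters, 1 per immunoprecipitated library. The 70 input libraries have no list of their own. The authors called clusters on mm10 (the build in the submitters' processing notes) with CLIPper, through a company pipeline, and scored them against the matched input. The deposited −log10 p-value and the deposited log2 fold of immunoprecipitated over input reads were used only to select clusters. The lists hold no reads, so depth was taken as the number of listed and enriched clusters, and a count model for reads could not be used.

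Each cluster went to the GENCODE vM21 gene of its strand that held its midpoint. Coding sequence and UTR labels took in all annotated transcripts, and coding sequence had priority where they overlapped. Distances from the transcript start and the stop codon were read off the representative transcript. Enriched clusters (p of 0.001 or less) per gene were divided by median-ratio size factors. Log2 of the value plus 0.5, which understates changes of low genes, was fitted with limma 3.58.1 (R 4.3.3, two-sided, SE moderated) for genes with at least 2 clusters in at least 50% of libraries. Sex was a covariate except in the all-male ASO experiment. Benjamini-Hochberg adjustment covered all genes tested, and a call is an adjusted p under 0.05. Sites were compared by an exact test within sexes. Copies were found with BLAST 2.17.0, and other steps used Python 3.11.15. Sequences come from the GRCm38 genome. The code was checked on simulated data.

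Named members were those called, the 10 with the most clusters per assay and region, the top 2 of each complex, the tissue-restricted paralogues and, for each comparison, the 5 untested members with the widest presence difference. Members with the smallest p and those used for positions or windows were named after their values were seen. The members and lists were chosen with earlier results of these data known. Labels do not say whether libraries of one number in different assays or regions share a mouse, and p-values measure the spread between these libraries. Alternatives were other scalings, pseudocount, filters, all listed clusters, covered bases, the study's filter, each sex alone, each library left out, a replicate block and the intronic share.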

Additional observations from a re-analysis of the deposited data

Results flagged for a closer look

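Among 55 groups of 8 libraries, 8 had a library whose gap to the nearest other was large for the range of the group. A chance rate of about 1 in 20 would need continuous values. These are small counts with many zeros, and Atp5a1 in the same library was counted in both the region and the assay comparison. The 8 of 55 are therefore not read as an excess. Values are normalized enriched clusters. In TDP-43 NT striatum, Ndufa5 had 0.0 in male 1, against 2.04 to 2.62 in the other 7. Atp5a1 had 21.99 in male 1 in the region comparison, against 8.69 to 10.82, and 21.0 in the assay comparison, against 8.32 to 10.28. That library held the fewest enriched clusters of all, 4929. Uqcrh had 2.96 in female 3, against 0 to 1.24, and the long model of Atp5o had 5.03 in female 4, against 0 to 1.97. Uqcrfs1 had 0.93 in male 3 and 0 in the others. In TDP-43 NT cortex Ndufa9 had 0.93 in female 2 and 0 in the others. In m6A NT cortex Ndufa7 had 4.43 in male 1, against 0 to 2.02. None of the 6 tests of a difference between regions or sexes called a member.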

How the results depend on the processing

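Counts below are genes called with members in brackets. In TDP-43 striatum, 317 [0] became 78 under the study's filter, 1915 [1] with all listed clusters, 145 [1] with covered bases, 3 in males, [1] in females, 27 without the libraries above 30% intronic and 89 with the intronic share as a covariate. In TDP-43 cortex, 277 [0] became 432 under quantile normalization, 106 under the study's filter, 583 [1] with all listed clusters, 104 with covered bases, 93 in males and 42 in females. In m6A striatum, 938 [0] became 3 under the study's filter, 605 with covered bases, 255 in males, 272 in females and [1] under quantile normalization. In m6A cortex, 560 [0] became 2 under the study's filter, 81 in males, 85 in females and [1] with a looser filter. In ASO, 3064 [17] became 3 [0] under the study's filter and 272 [1] with covered bases. Between regions, 1686 [6] with TDP-43 became 901 [1] under the study's filter and [1] with all listed clusters, and 1735 [2] with m6A became 61 [0] under the study's filter. Between assays, the members called numbered 62 in striatum and 65 in cortex with all listed clusters, against 30 and 27. Leaving out 1 library at a time gave 227 to 464 [0 to 1], 150 to 342 [0 to 1], 716 to 890 [0 to 1], 431 to 541 [0 to 1] and, for ASO, 1961 to 2745 [10 to 16].

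Directions turned as follows. In TDP-43 striatum R6/2, Ndufa8 became 0.23 and Ndufa5 0.50 without the high-intron libraries, which left no R6/2 female. Both became 0.19 with the covariate. In m6A R6/2, Cox6c in striatum became 0.10 with covered bases, and with all listed clusters Atp5k became −0.10, Cox6c in cortex −0.04 and Ndufa7 −0.15. Between regions with TDP-43, all listed clusters gave Ndufa13 0.05, the long model of Atp5o 0.09 and Ndufv1 0.32, and quantile normalization gave Ndufv1 0.09. Between assays, all listed clusters gave Cox4i1 −0.69 in striatum and −0.72 in cortex, Atp5b −1.22 and −1.16, Sdha −0.15 and −0.03, Atp5a1 −0.92 and −0.89, and Ndufv1 −0.45. In ASO, covered bases gave Ndufaf5 0.09, Cox6a1 0.02, Atp5o −0.01 and Atp5a1 −0.00, and clusters of 1 gene only gave Atp5o −0.02. The cause was not tested. All listed clusters could not be used for ASO, where intervals are shared within a treatment.

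In no comparison did the deviations of every same-numbered pair correlate above 0.1 (−0.457 to 0.46). Above it lay 4 of 8 pairs in TDP-43 striatum, 1 of 8 in TDP-43 cortex, 4 of 8 between regions with TDP-43 and none in the others. Between regions with m6A, 14 of 16 libraries nevertheless correlated best with their own number (up to 0.0882), a hint from the data and not from the design. The labels leave a shared mouse unstated, so numbers were not used as pairs. With a replicate block 127 genes were called in TDP-43 cortex R6/2 and 1939 [10] in ASO, and the other counts stayed within 1.5 times. Few clusters per gene limit what can be seen, and 31 of 94 members were never tested between genotypes, treatments or regions.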
